A study of Mus musculus with 20 samples.

Results

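The Na/K ATPase is the pump of the plasma membrane that exports sodium and imports potassium at the cost of ATP. It is built of a catalytic subunit, a glycosylated beta subunit that carries the pump to the surface, and often a small FXYD protein that tunes its affinity and rate. The genes described here are 3 beta subunit genes (Atp1b1, Atp1b2 and Atp1b3) and 4 FXYD genes (Fxyd1, Fxyd2, Fxyd5 and Fxyd6), taken as a fixed list of names, so 7 of the 51912 genes in the count table. All 7 had a count in at least 1 library and were among the 28762 genes tested. In white blood cells the ubiquitous Atp1b3 and Fxyd5 are the familiar members, whereas Atp1b2 is known from astrocytes, Fxyd1 from heart, muscle and choroid plexus, Fxyd2 from kidney tubules and Fxyd6 from brain.

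Neutrophils were sorted as live single cells with high CD11b and high Ly6G from wild-type mice labelled C57BL/6 (C57BL/6J in the study's methods), and 5 groups of 4 RNA-seq libraries were made. Tumor mice carried KPC cells, a mouse pancreatic ductal adenocarcinoma (PDAC) line, and were taken at 10 days post inoculation (d.p.i.). Their brain, liver and tumor, after perfusion, gave brain-, liver- and tumor-infiltrating neutrophils, and their blood gave circulating neutrophils. Sham mice received PBS and gave circulating neutrophils only. Mice in the study were 7 to 12 weeks old. The labels and methods do not say which libraries came from 1 mouse, so p-values measure the spread between libraries taken as independent.

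The 20 libraries held 47388245 to 54472378 counts each, spread over 5 lanes. Neutrophil markers S100a8 and S100a9 were abundant in every group, and the 12 neutrophil markers summed to 53243 to 82406 CPM (reads scaled to library size) in the brain but 5941 to 16700 CPM in the tumor. Markers of other cells moved with the groups. The 11 tumor epithelium and acinar markers summed to 1120 to 3906 CPM in the tumor (1119.9 at the lowest) against 7.62 to 404 CPM in the other groups. Of 12 brain endothelium markers, 10 were higher in the brain than in blood neutrophils of tumor mice, as were 8 of 10 microglia and 6 of 10 monocyte and macrophage markers. All 7 tested erythroid markers were lower in the brain, the liver and the tumor than in that blood, where they summed to 5260 to 66924 CPM (5259.9 at the lowest) against 2.59 to 428 CPM in the tissues. In such bulk libraries, fewer cells of a type and less RNA per cell cannot be told apart.

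Levels are CPM after TMM scaling. The test was the quasi-likelihood test of edgeR, fitted once to all 20 libraries, and p-values were adjusted by Benjamini-Hochberg over all 28762 genes. A gene is called at an adjusted p under 0.05. Over the 5 groups, 6 of the 7 genes were called, where 30.8% of all genes were. The adjusted p was 2.90e-05 for Atp1b2, 0.000110 for Fxyd5, 0.000173 for Fxyd1, 0.0101 for Atp1b1, 0.0219 for Atp1b3 and 0.0365 for Fxyd2, and Fxyd6 missed the threshold at 0.0515 (edgeR). Of 27 alternative settings, Atp1b1 lost its call under 1, with lane as a term (adjusted p = 0.0942). Atp1b3 lost it under 6, among them leaving out liver replicate 3 or 4 (0.0682 and 0.0542) or brain replicate 4 or 5 (0.0577 and 0.0578). Fxyd2 lost it under 14, of which 11 left out 1 library: tumor mouse blood replicate 1, 2, 3 or 4, liver replicate 1, 2 or 3, tumor replicate 1 or 3, or brain replicate 3 or 4 (0.0508 to 0.0605). Fxyd6 gained a call under 9, of which 6 left out brain replicate 2, 3, 4 or 5 or tumor replicate 2 or 5 (0.0114 to 0.0458), while filterByExpr removed it before testing.

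Among the 7 genes, nearly all of the RNA came from Fxyd5, a FXYD protein also called dysadherin that is known to lower cell adhesion, and from Atp1b3. Per kilobase of exon, Fxyd5 reached 565 ± 109 CPM in circulating neutrophils of sham mice and 206 ± 60.7 CPM in the tumor (SD, n = 4). On the same scale Atp1b3 lay between 59.1 ± 10.03 CPM in the brain and 115 ± 21.1 CPM in the liver. Of the summed level of the 3 beta genes per kilobase, Atp1b3 made up 99.6% ± 0.282 in blood neutrophils of tumor mice, 99.2% ± 0.744 in the liver, 98.3% ± 1.13 in sham blood, 92.2% ± 5.51 in the brain and 89.4% ± 5.17 in the tumor (SD, n = 4). The remainder in the tumor was mostly Atp1b1 at 10.5% ± 5.20. In the brain it was divided between Atp1b1 (4.43% ± 4.82) and Atp1b2 (3.41% ± 0.899). Of the 4 FXYD genes, Fxyd5 was at least 97.8% of the summed level per kilobase in each of the 20 libraries, and the lowest value was in brain replicate 4.

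Atp1b2 (mm10, chromosome 11, 69599736 to 69605942, minus strand), the beta subunit first known as an adhesion molecule on glia, was higher in all 4 brain libraries than in any other library. Its level in brain replicates 2, 3, 4 and 5 was 9.77, 8.78, 11.4 and 5.68 CPM, from 263 to 534 counts. The highest library of any other group had 0.633 CPM. The tumor libraries held 8, 1, 40 and 37 counts, the liver libraries 1, 0, 6 and 32. Each blood library had 3 counts or fewer. The brain therefore did not overlap with any other group. Against blood neutrophils of tumor mice the log2 fold change was 8.54 with a standard error (SE, derived from the test) of 1.58 (adjusted p = 0.00216, edgeR). It was 4.76 (SE 1.31, adjusted p = 0.0146) with the tumor and 5.46 (SE 1.36, adjusted p = 0.0311) with the liver as reference. The first of these calls held in all 28 alternatives run, with a log2 fold change of 9.83 without tumor mouse blood replicate 1. The call against the tumor was lost without tumor replicate 1 (adjusted p = 0.0512). With the liver as reference the call did not hold when liver replicate 1, 2 or 3 was left out (adjusted p = 0.0854, 0.0620 and 0.0966), nor without brain replicate 2 or 4 (0.0633 and 0.0732), while without liver replicate 4 the log2 fold change was 7.29 (0.0176).

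Brain markers were measured beside this. Astrocyte markers, 10 genes, summed to 22.3, 70.9, 30.6 and 16.8 CPM in brain replicates 2, 3, 4 and 5, and 4 of the 10 were higher in the brain than in tumor mouse blood. Their sum was 21.1 to 78.6 CPM in the tumor, where Atp1b2 was at 0.326 ± 0.304 CPM (SD, n = 4), and 2.16 to 6.37 CPM in tumor mouse blood. The astrocyte channel genes Aqp4 and Gjb6 were at 0 in both of these groups. The astrocyte gap junction gene Gja1 had 1.83 ± 2.26 CPM in the brain and 18.4 ± 18.5 CPM in the tumor. Brain endothelium markers, 12 genes, summed to 645, 464, 974 and 555 CPM in the same 4 brain libraries, 514 to 562 CPM in the tumor, 246 to 358 CPM in the liver and 134 to 325 CPM in the blood, with the transporter Slco1a4 at 71.6 ± 47.2 CPM in the brain and no count in the liver or in blood neutrophils of tumor mice. Pericyte markers, 8 genes of which 3 were higher in the brain than in tumor mouse blood, summed to 60.0, 23.9, 63.6 and 27.9 CPM, with Rgs5 at 19.9 ± 12.4 CPM, and to at most 57.9 CPM in the tumor. Microglia markers, 10 genes, summed to 1285, 2911, 704 and 784 CPM in the brain libraries and 719 to 866 CPM in tumor mouse blood, with 8 higher in the brain than in tumor mouse blood and 8 than in the liver. The part of these cell types in the Atp1b2 result was not tested. With brain replicates 3 and 4 both left out, a setting chosen after seeing the data, Atp1b2 kept a log2 fold change of 8.34 against blood neutrophils of tumor mice (adjusted p = 0.0150, edgeR), while the values against the tumor and the liver were 4.56 and 5.25 and missed the threshold (adjusted p = 0.0603 and 0.116).

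Outside the brain, Atp1b2 was also called higher in the tumor than in blood neutrophils of tumor mice (log2 fold change 3.78, SE 1.32, adjusted p = 0.0415, edgeR). These groups overlap, with 1 count in tumor replicate 2 against 3, 1, 0 and 0 in the blood. This call was lost without any of tumor replicates 3 and 5, tumor mouse blood replicates 2, 3 and 4, and brain replicates 2, 3 and 4 (adjusted p = 0.0870, 0.0864, 0.0906, 0.102, 0.0961, 0.0525, 0.0526 and 0.0527), with lane as a term (0.0780), in limma (0.0678) and with the compared groups alone in the fit (0.143). Without tumor mouse blood replicate 1 it held at a log2 fold change of 5.13 (0.0264).

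Atp1b1 (chromosome 1, 164437109 to 164458355, minus strand), the common beta subunit of epithelia, was highest in the tumor. Tumor replicates 1, 2, 3 and 5 had 27.7, 38.8, 37.8 and 12.5 CPM. Blood neutrophils of tumor mice had 1.02, 0.609, 0.0221 and 1.27 CPM, the lowest group. The groups do not overlap, and the log2 fold change was 5.31 (SE 1.28, adjusted p = 0.00369, edgeR), a call that held in all 27 alternatives. The liver libraries, at 3.63, 0.0223, 1.72 and 6.00 CPM, all lay below the tumor as well, but the difference missed the threshold (log2 fold change 3.36, SE 1.17, adjusted p = 0.0809). Without brain replicate 2, which changes the shared estimate of spread, that difference was called (adjusted p = 0.0324), as it was by DESeq2 (0.00939), by limma (0.0302) and with the compared groups alone in the fit (0.0412).

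In the brain Atp1b1 was scattered. Replicates 2, 3, 4 and 5 had 0.0896, 10.3, 20.6 and 3.44 CPM, so that the lowest brain library lay within the range of the blood and the highest within that of the tumor. No brain comparison was called, with adjusted p = 0.0903 against blood neutrophils of tumor mice, 0.283 against the tumor and 0.455 against the liver (edgeR). Without brain replicate 2 the first was called (adjusted p = 0.0343), as it was by DESeq2 (0.0105). Sham blood had 4.39 ± 2.43 CPM and tumor mouse blood 0.732 ± 0.547 CPM (SD, n = 4), a log2 fold change of -2.58 that missed the threshold (SE 1.14, adjusted p = 0.265). The exons of Atp1b1 share 575 bases with Nme7 on the opposite strand, and the library kit does not mark strand, so reads there cannot be told apart. Nme7 had 5.30 ± 2.60 CPM in the tumor and 1.12 ± 1.04 CPM in the brain. Tumor epithelium markers, like Atp1b1, were highest in the tumor, and 9 of 11 were higher there than in tumor mouse blood, where Cldn4 and Cpa1 were at 0. In brain replicates 3 and 4, where Atp1b1 had 10.3 and 20.6 CPM, they summed to 8.09 and 27.3 CPM. Their sums were 18.4 to 26.3 CPM in sham blood and 7.62 to 21.9 CPM in tumor mouse blood. The keratin gene Krt8 had 650.2, 704, 1054 and 312 CPM in tumor replicates 1, 2, 3 and 5, lowest in replicate 5 as Atp1b1 was, and 0.425 ± 0.286 CPM in tumor mouse blood. Choroid plexus markers summed to 39.4, 107, 2392 and 131 CPM in brain replicates 2, 3, 4 and 5, highest in replicate 4 as Atp1b1 was. Brain endothelium sums were also highest in replicate 4 (974 CPM) but lowest in replicate 3 (464 CPM). Neuron markers summed to 0.941, 57.8, 8.25 and 3.13 CPM in the same 4 libraries. The part of tumor epithelium or of these brain cells in the Atp1b1 values was not tested.

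Atp1b3 (chromosome 9, 96332655 to 96364442, minus strand), the beta subunit of blood cells among others, varied little. Its level ranged from 121 to 361 CPM over the 20 libraries, a ratio of 2.99. In order of the mean, the liver had 274 ± 50.5 CPM, sham blood 222 ± 92.8, the tumor 199.6 ± 54.7, tumor mouse blood 162 ± 27.3 and the brain 141 ± 24.0 (SD, n = 4). Every pair of neighbours in this order overlapped between libraries. The ends did not. The brain libraries had 156, 167, 121 and 121 CPM and the liver libraries 236, 228, 334 and 297 CPM, a log2 fold change of -0.95 (SE 0.24, adjusted p = 0.0328, edgeR). The call was lost without brain replicate 2, 4 or 5 (adjusted p = 0.0564, 0.109 and 0.0986) or liver replicate 3 or 4 (0.108 and 0.0898), and with lane as a term (0.0613). Against the tumor the brain missed the threshold (log2 fold change -0.50, SE 0.24, adjusted p = 0.163, edgeR), while DESeq2 called it lower (-0.63, adjusted p = 0.0475). Liver-infiltrating neutrophils had 1.69 times the level of blood neutrophils of tumor mice with no overlap between the groups, and this missed the threshold (adjusted p = 0.0700), but it passed without tumor replicate 1 or sham blood replicate 1 (0.0444 and 0.0216), with DESeq2 (0.0246), with filterByExpr (0.0496), with lane as a term (0.0263) and with the compared groups alone (0.0265). Of 10 monocyte and macrophage markers, 6 were higher in the liver than in tumor mouse blood, and their part in the Atp1b3 values was not tested. Atp1b3 has a near copy, the predicted gene Gm1848, 96.4% identical over 805 bases. Gm1848 had at most 0.154 ± 0.0521 CPM, the mean of the liver, so few reads were counted there, though how reads that fit both were assigned is not stated.

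**Figure D1:**
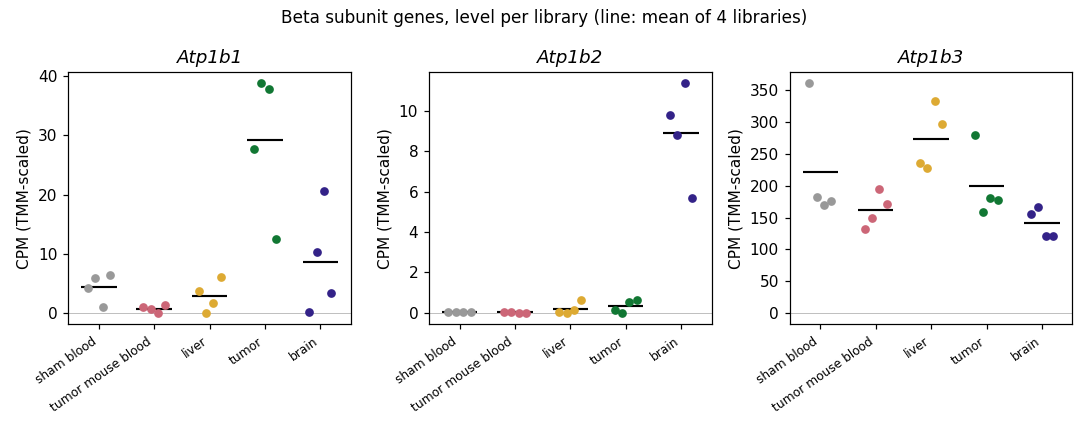
Level of the 3 beta subunit genes in each library (vertical axis, CPM after TMM scaling, linear and on a separate scale for each gene; horizontal axis, the 5 groups). Points are libraries and lines are means of 4; the brain libraries of Atp1b2 sit between 5.68 and 11.4 CPM above all others, and the tumor libraries of Atp1b1 between 12.5 and 38.8 CPM.

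Fxyd5 (chromosome 7, 31032722 to 31042481, minus strand) fell in tumor-infiltrating neutrophils. Tumor replicates 1, 2, 3 and 5 had 657, 978, 651 and 1169 CPM. Blood neutrophils of tumor mice had 2084, 1710.5, 1975 and 2038 CPM and did not overlap with them. The log2 fold change was -1.18 (SE 0.20, adjusted p = 0.000130, edgeR). The liver libraries had 1329, 1745, 1894 and 1597 CPM and also lay above the tumor (tumor against liver, log2 fold change -0.93, SE 0.20, adjusted p = 0.00353). Both calls held in all 27 alternatives. The brain libraries had 1746, 1238, 1197 and 1491 CPM, above the tumor with a log2 fold change of 0.71 (SE 0.20, adjusted p = 0.0158). That call was lost without brain replicate 2 or 5 (adjusted p = 0.0896 and 0.0540) or tumor replicate 1 or 3 (0.0858 and 0.0921), and with the compared groups alone in the fit (0.0923).

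The other neighbours in the order of Fxyd5 were not called apart. Sham blood had 2368 ± 458 CPM, tumor mouse blood 1952 ± 167, the liver 1641 ± 241 and the brain 1418 ± 255 (SD, n = 4), with adjusted p = 0.544, 0.535 and 0.597 between successive groups (edgeR). Neutrophil markers, like Fxyd5, were lower in the tumor than in the other groups. Outside the tumor their order differed from that of Fxyd5. Their mean sums were 71222 CPM in the brain, 57886 in tumor mouse blood, 40565 in the liver and 32711.5 in sham blood. Their sums in tumor replicates 1, 2, 3 and 5 were 5941, 14133, 8344 and 16700 CPM (16699.9 in the last), low in replicates 1 and 3 as Fxyd5 was. Of the 12 neutrophil markers, 11 were lower in the tumor than in blood neutrophils of tumor mice. Of 10 monocyte and macrophage markers 8 were higher and 1 lower there, with sums of 2492 to 4941 CPM in the tumor and 360 to 560 CPM in that blood (359.8 and 559.8). The part of either list in the fall of Fxyd5 was not tested.

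Fxyd1 (chromosome 7, 31051678 to 31057199, minus strand), which encodes phospholemman, the phosphorylated FXYD partner of the pump in heart and muscle, lies on the same strand and ends 9196 bases before Fxyd5 begins. It held 38, 73, 624 and 47 counts in brain replicates 2, 3, 4 and 5, or 0.851, 1.41, 13.3 and 1.02 CPM. Replicate 4 alone thus held most of the brain's counts. The tumor libraries had 19, 1, 10 and 2 counts, the liver libraries 16, 0, 2 and 3, and sham blood 0, 0, 1 and 0. Blood neutrophils of tumor mice had none, where 3 counts, the limit that a count of 0 allows, would be 0.0609 to 0.0662 CPM in a library. The brain libraries lay above all libraries of the other groups.

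Against 3 counts over the 4 blood libraries of tumor mice, Fxyd1 was at least 257-fold higher in the brain (adjusted p = 0.00427, edgeR) and at least 7.43-fold higher in the tumor (adjusted p = 0.0254). Without brain replicate 4 the bound for the brain was 69.0-fold (adjusted p = 0.0242), and without tumor replicate 1 that for the tumor was 4.03-fold. These bounds cover counting error only, since reads amplified by PCR are not independent molecules. The brain was higher than the tumor by a log2 fold change of 5.11 (SE 1.57, adjusted p = 0.0319), while the difference from the liver missed the threshold (log2 fold change 5.28, SE 1.58, adjusted p = 0.0911). DESeq2 and limma called the latter (adjusted p = 0.00244 and 0.00806). The call of brain against tumor was lost without brain replicate 4 (log2 fold change 3.12, adjusted p = 0.219) or tumor replicate 2, 3 or 5 (0.0841, 0.0800 and 0.0725) and with lane as a term (0.0529). Without tumor replicate 1 it held at 5.97 (0.0420). That of tumor against tumor mouse blood was lost without tumor replicate 1 (0.0638) or tumor mouse blood replicate 1, 2, 3 or 4 (0.0536, 0.0567, 0.0527 and 0.0513), with lane as a term (0.276), in limma (0.523) and with the compared groups alone in the fit (0.0682).

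Brain replicate 4 was also the library with the highest summed choroid plexus markers. Among the brain libraries it also had the highest brain endothelium and pericyte sums (974 and 63.6 CPM). The 10 choroid plexus markers summed to 39.4, 107, 2392 and 131 CPM in brain replicates 2, 3, 4 and 5, with the transthyretin gene Ttr at 18.3, 83.4, 1648 and 108 CPM (1647.5 in replicate 4). In blood neutrophils of tumor mice 4 of these markers, Folr1, Kl, Otx2 and Cldn2, were at 0, 4 of the 10 were higher in the brain, and the sum was 0.153 to 5.53 CPM. With brain replicates 3 and 4 both left out, Fxyd1 was still called against blood neutrophils of tumor mice, at least 58.2-fold higher (adjusted p = 0.0455), and the log2 fold change against the tumor was 2.97 (adjusted p = 0.324, edgeR). The part of choroid plexus cells, endothelium or pericytes in the result was not tested.

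The promoters of Fxyd5 and Fxyd1 are shown because the genes are neighbours on 1 strand yet Fxyd5 was abundant in every group and Fxyd1 was near 0 in blood. Each is the RefSeq sequence (GRCm38.p6, minus strand, 5′ to 3′) of 300 bases that ends 50 bases past the start of a transcript, at chr7:31042282-31042581 for Fxyd5 and chr7:31054804-31055103 for Fxyd1. Capitals mark matches on either strand to 5 short motifs: GGGCGG (the GC box), TATAAA (the box named after it), CCAAT (the box of that name), GAGGAA (a core that PU.1 and other ETS factors bind) and TTNNGNAA (a C/EBP pattern).
Fxyd5: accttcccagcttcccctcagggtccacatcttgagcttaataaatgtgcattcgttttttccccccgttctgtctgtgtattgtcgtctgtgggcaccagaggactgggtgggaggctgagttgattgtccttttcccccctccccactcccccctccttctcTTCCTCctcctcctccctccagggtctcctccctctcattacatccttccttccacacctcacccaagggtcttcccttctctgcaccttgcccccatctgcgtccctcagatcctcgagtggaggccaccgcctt
Fxyd1: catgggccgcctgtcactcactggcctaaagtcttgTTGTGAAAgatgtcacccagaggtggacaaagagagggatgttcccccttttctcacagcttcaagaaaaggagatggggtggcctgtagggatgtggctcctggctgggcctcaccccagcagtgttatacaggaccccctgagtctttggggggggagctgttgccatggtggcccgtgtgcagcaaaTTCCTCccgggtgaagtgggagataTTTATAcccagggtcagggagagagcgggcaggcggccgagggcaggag
Of these motifs the Fxyd5 window held 1, a single GAGGAA, which is present in 28.3% of the 32851 mouse promoter windows of this length. The Fxyd1 window held 1 GAGGAA, 1 TATAAA and 1 TTNNGNAA, which 28.3%, 13.6% and 40.7% of all windows hold. Its TATAAA match reads on the opposite strand, 1 to 6 bases past the transcript start and not before it. The Fxyd1 window also lies inside the annotated span of the gene, which has 17 transcripts. The matched bases did not overlap. GC boxes, in 35.7% of windows, were found in neither, but 2 stood in that of Atp1b1 and 6 in 1 of the 2 windows of Atp1b3. CCAAT, in 37.4% of windows, had 2 matches for Atp1b1 and 1 for Fxyd6. Of the 7 genes, 5 had a window in the table, and Atp1b2 and Fxyd2 were not matched. A match describes these letters and is not a binding site.

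Fxyd2 (chromosome 9, 45399669 to 45410278, plus strand), the gamma subunit of the kidney pump, was rare. The tumor libraries had 49, 12, 21 and 30 counts, all 4 above 0, and blood neutrophils of tumor mice had none, which makes the tumor at least 26.0-fold higher (adjusted p = 0.0305, edgeR). This call was lost without tumor replicate 1 (adjusted p = 0.0529) or any 1 of tumor mouse blood replicates 1, 2, 3 and 4 (0.0643, 0.0674, 0.0636 and 0.0611), with lane as a term (0.0985) and in limma (0.0548). The brain libraries had 0, 28, 63 and 0 counts, so that its counts came from replicates 3 and 4. Choroid plexus markers summed to 107 and 2392 CPM in brain replicates 3 and 4, and to 39.4 and 131 CPM in replicates 2 and 5. Neuron markers summed to 57.8 and 8.25 CPM in the former and 0.941 and 3.13 CPM in the latter. The part of these cell types in the Fxyd2 counts was not tested. The brain was not called in its comparisons, with adjusted p = 0.0810, 1 and 0.243 against tumor mouse blood, tumor and liver, in that order (edgeR). DESeq2 called Fxyd2 in brain against tumor mouse blood (adjusted p = 0.0439). Sham blood had 5 counts in replicate 4 and 0 elsewhere, and the liver 2 counts in replicate 4.

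Fxyd6 (chromosome 9, 45370185 to 45396159, plus strand), a FXYD protein known from neurons of the brain and inner ear, ends 3509 bases before Fxyd2. Its counts were as unevenly placed. Brain replicate 3 held 203 counts and the other 3 brain libraries none, and tumor replicates 1, 2, 3 and 5 held 159, 2, 57 and 0. The 12 libraries of the liver and the blood held at most 2 counts each. No comparison was called (adjusted p = 0.106 to 1, edgeR), while DESeq2 called tumor against tumor mouse blood (adjusted p = 0.0430). The sign of brain against tumor hung on brain replicate 3. With it the log2 fold change was 0.31 (SE 1.94, adjusted p = 1), and without it -8.42 (adjusted p = 0.0403), from a brain group with no count. Brain replicate 3 was also the brain library with the most neuron markers, which summed to 0.941, 57.8, 8.25 and 3.13 CPM in replicates 2, 3, 4 and 5. Its astrocyte, oligodendrocyte, microglia, and monocyte and macrophage sums were also the highest of the brain libraries (70.9, 358, 2911 and 2808 CPM). The synaptic gene Snap25 had 14.1 CPM in replicate 3 and at most 0.234 CPM in the other brain libraries. In the tumor, fibroblast markers (10 genes, 8 of them higher than in tumor mouse blood) summed to 823, 34.3, 342 and 23.4 CPM in replicates 1, 2, 3 and 5, highest in replicates 1 and 3, which held nearly all tumor counts of Fxyd6. Pericyte, astrocyte and platelet markers, among others, were also highest in tumor replicates 1 and 3 (57.9 and 31.4, 78.6 and 50.6, and 215 and 144 CPM). The part of any of these cell types in the Fxyd6 counts was not tested.

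**Figure D2:**
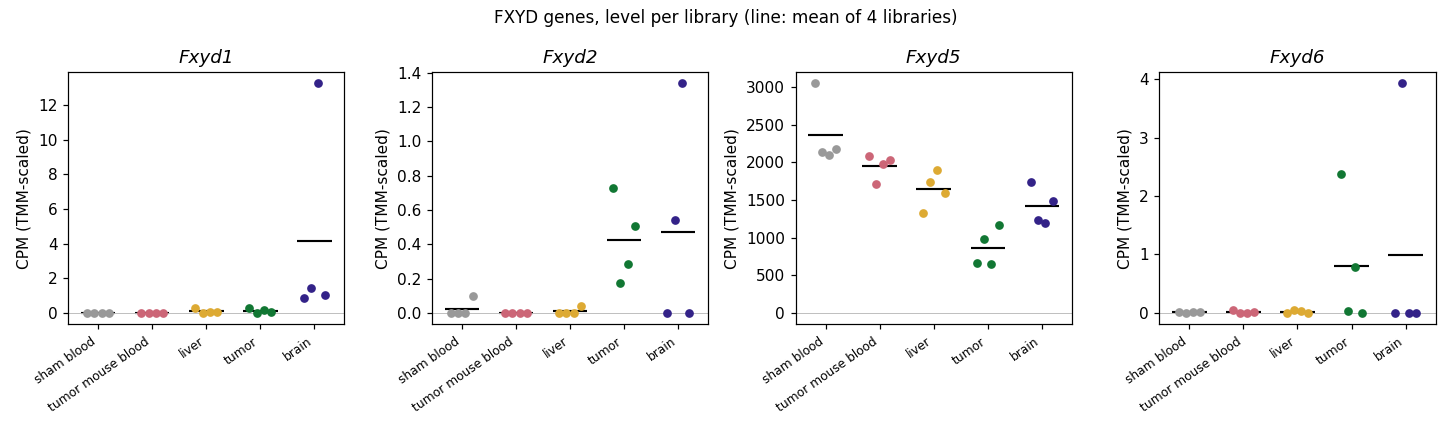
Level of the 4 FXYD genes in each library (vertical axis, CPM after TMM scaling, linear and on a separate scale for each gene; horizontal axis, the 5 groups). Points are libraries and lines are means of 4; Fxyd5 is lowest in the tumor at 651 to 1169 CPM, Fxyd1 lies at 0.851 to 13.3 CPM in the brain, and Fxyd6 in the brain comes from 1 library (3.93 CPM).

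**Figure D3:**
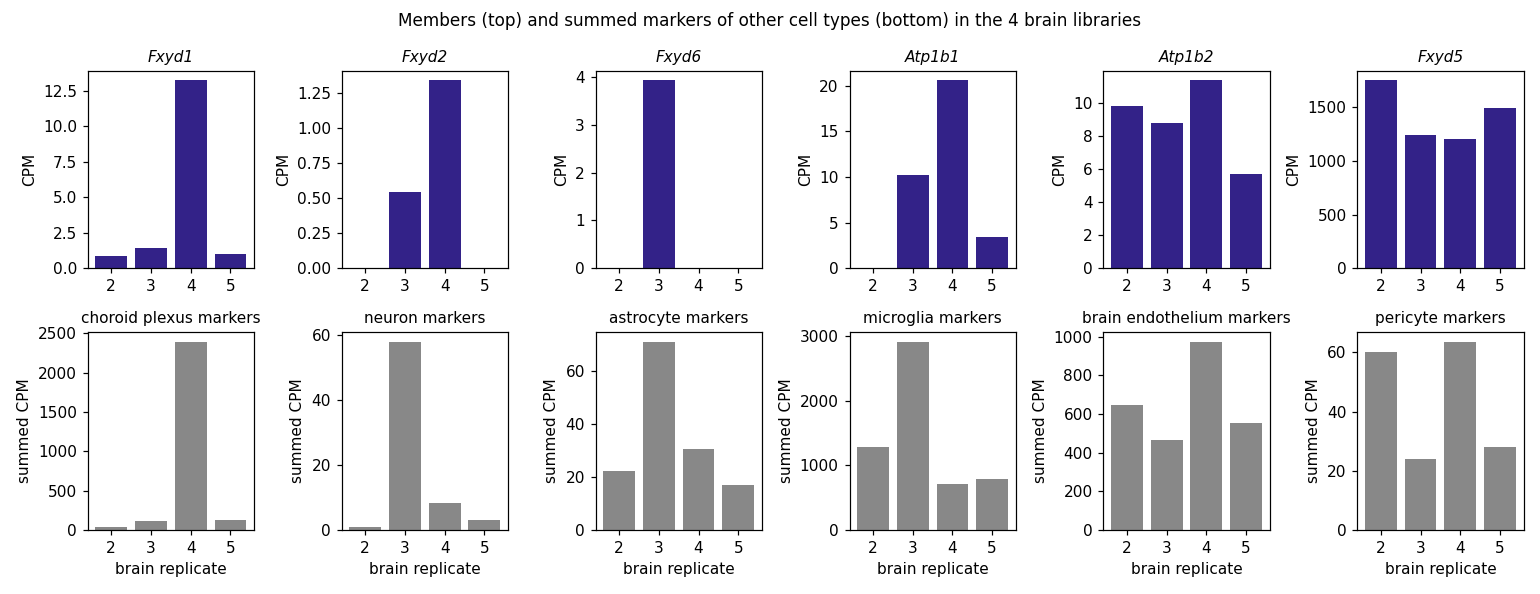
Level of 6 members (upper row, CPM) and summed level of 6 marker lists of other cell types (lower row, summed CPM) in brain replicates 2, 3, 4 and 5 (horizontal axis), as bars from 0. Fxyd1, Fxyd2, Atp1b1, Atp1b2 and the choroid plexus, brain endothelium and pericyte markers are highest in replicate 4. Fxyd6 and the neuron, astrocyte and microglia markers are highest in replicate 3, and Atp1b2 is at 5.68 to 11.4 CPM in all 4.

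Counted over the 7 genes, brain-infiltrating neutrophils had 2 called higher and 0 lower than tumor mouse blood, Atp1b2 and Fxyd1, where 3.56% of all genes were called higher, 1.41% lower and 4.96% either way. These 2 were also the members whose groups did not overlap (9.57% of all genes) and that passed a log2 fold change of 2 besides the test (3.07%). Against the tumor 3 were higher, Atp1b2, Fxyd1 and Fxyd5, and 0 lower, where 8.54% of all genes were higher, 6.87% lower and 15.4% either way. The same 3 did not overlap (19.3% of all genes), and 2 of them, without Fxyd5, passed the fold as well (6.51%). Against the liver Atp1b2 was higher and Atp1b3 lower, where 1.05% of all genes were higher, 1.57% lower and 2.62% either way. There 3 members did not overlap, with Fxyd1 (8.89%), and 1 passed the fold (1.39%). With 7 genes, 1 gene is 14.3% of the list, so a single call exceeds most of these shares.

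Tumor-infiltrating neutrophils had 4 members called higher and 1 lower than tumor mouse blood, where 13.3% of all genes were higher, 10.3% lower and 23.7% either way. Of the members, 4 did not overlap (26.6%) and 4 passed the fold (12.8%). When the fit held the compared groups alone, 3 of the 5 were called, and with lane as a term 2, where the genes called in all numbered 6453 and 3892 against 6806. Against the liver 0 were higher and 1, Fxyd5, lower, where 2.38% of all genes were higher, 6.40% lower and 8.79% either way. Fxyd5 did not pass the fold, which leaves 0 (2.52% of all genes). No lane held libraries of both the tumor and tumor mouse blood, so lane and group are not separated directly in that comparison. The comparisons of brain, tumor and liver with tumor mouse blood share the same blood libraries, so their counts are not independent.

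No member was called in the other comparisons. Between liver-infiltrating neutrophils and tumor mouse blood edgeR called 0, with 3 at an unadjusted p under 0.05, while DESeq2 called 2 and limma 0. DESeq2 called 3553 of all genes in this comparison, and edgeR 1491. Over all genes edgeR called 3.98% higher, 1.20% lower and 5.18% either way, and 2.96% with the fold. Atp1b3 was the 1 member whose groups did not overlap there (12.6% of all genes). Between tumor mouse blood and sham blood edgeR called 0, with 1 at an unadjusted p under 0.05, Atp1b1, and DESeq2 and limma called 0. Over all genes edgeR called 1.63% higher, 1.69% lower and 3.32% either way, and 1.46% with the fold. The median log2 fold change of the 7 genes was 5.72 in brain against tumor mouse blood, 0.31 against the tumor and 5.23 against the liver, where that of all genes was 0. With genes that had no count in 1 group set at their bound, the first was 4.90. In tumor against tumor mouse blood the median was 5.31, or 3.78 with such genes at their bound. Each median is the value of 1 gene. The brain medians of 5.72 and 0.31 are those of Fxyd6, whose brain counts came from replicate 3 alone. Those of 5.23 and 4.90 are of Fxyd2, whose brain counts came from replicates 3 and 4. In no brain comparison did edgeR call either gene. The tumor medians are those of Atp1b1 and, with the bound, Atp1b2. The 0 over all genes is a weak baseline, as each library held counts for only 15418 to 19594 of the 28762 tested genes. A gene with no count in either compared group has a fitted value of 0.

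**Figure D4:**
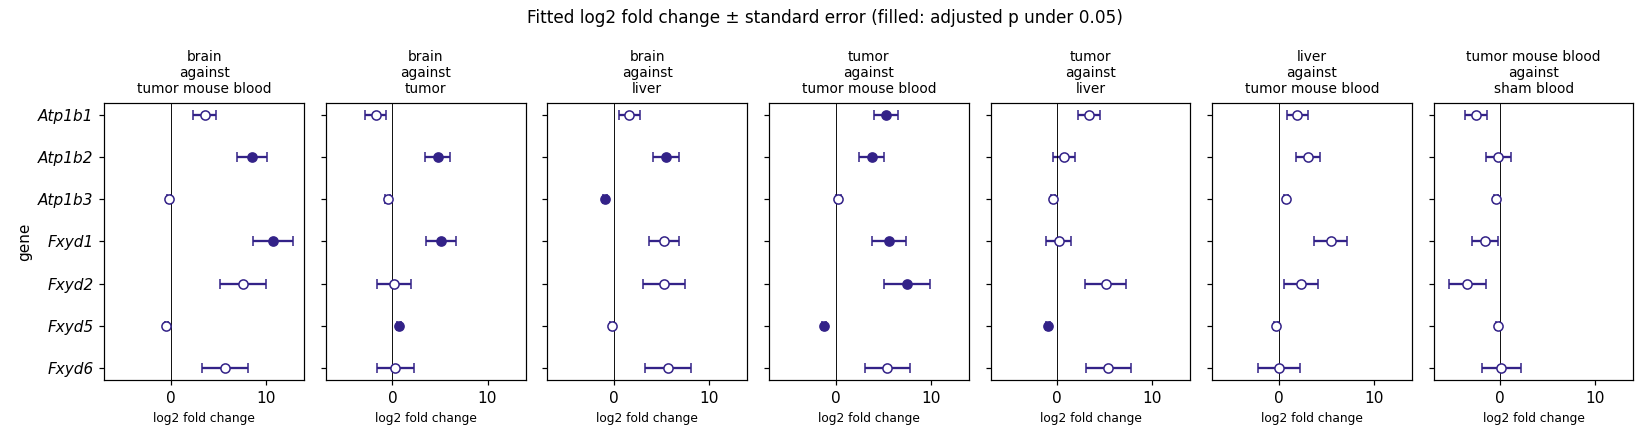
Fitted log2 fold change with its standard error (horizontal axis) of the 7 genes (vertical axis) in the 7 comparisons; filled points passed an adjusted p of 0.05 (edgeR). Atp1b2 is filled in the 3 brain comparisons and Fxyd5 in the 3 that involve the tumor, and fitted values of genes with no count in 1 group depend on the model's prior count.

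Genes of the same pathway were counted from 4 lists. Of 8 other subunit genes of the pump, 5 differed over the groups, where 30.8% of all genes did. In this list 1 was higher and 1 lower when the brain was compared with tumor mouse blood (4.96% of all genes either way), and 2 were higher and 2 lower when it was compared with the tumor (15.4%). The 8 genes summed to 184 to 357 CPM in the brain, 167 to 318 CPM in the tumor and 322 to 466 CPM in the liver. Their sum was 258 to 579 CPM in tumor mouse blood and 845 to 1248 CPM in sham blood. Among these, Fxyd3, a FXYD gene of epithelia, had 0.338 to 3.10 CPM in the tumor and no count in blood (adjusted p = 0.00536 for tumor against tumor mouse blood, edgeR). Fxyd7, a FXYD gene of neurons, had 2.18 ± 1.67 CPM in sham blood and 0.685 ± 0.204 CPM in tumor mouse blood (SD, n = 4). Of 10 tested related P-type pumps, 8 differed over the groups, and 2 were higher and 1 lower in the brain than in the tumor, beside the same shares of all genes. Atp2c1, a calcium and manganese pump of the Golgi, was lower in the tumor at 106 ± 9.21 CPM than in blood neutrophils of tumor mice at 301 ± 60.5 CPM (log2 fold change -1.50, SE 0.20, adjusted p = 6.27e-06, edgeR). Atp2a2, a calcium pump of the endoplasmic reticulum, went the other way (34.4 ± 10.5 to 134 ± 53.8 CPM, log2 fold change 1.96, adjusted p = 0.000167), and Atp2a3, its counterpart of blood cells, fell (log2 fold change -1.13, adjusted p = 0.00301). Atp2b1, a calcium pump of the plasma membrane, had 122 ± 48.6 CPM in the brain and 177 ± 22.4 CPM in tumor mouse blood, a difference that was not called.

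Of 15 sodium and potassium exchangers and cotransporters 8 differed over the groups, and against the tumor 4 were higher in the brain and 0 lower, where 30.8% of all genes differed over the groups and 8.54% were higher and 6.87% lower against the tumor. Among them were Slc12a9 and Slc8b1, the mitochondrial sodium and calcium exchanger, with log2 fold changes of 1.62 and 0.75 (adjusted p = 1.05e-05 and 0.00403, edgeR). Of 10 regulators of the pump 8 differed over the groups, and in the brain 2 were higher and 2 lower relative to tumor mouse blood, where 3.56% and 1.41% of all genes were. Sgk1, a kinase that raises sodium transport in epithelia, had 139 ± 16.8 CPM in the brain and a higher level, 476 ± 129.5 CPM, in tumor mouse blood (log2 fold change -1.77, SE 0.29, adjusted p = 0.000612). Sgk3, a related kinase, and Nr3c1, the glucocorticoid receptor gene, fell in the tumor against blood neutrophils of tumor mice (log2 fold changes -1.41 and -1.46, adjusted p = 1.17e-05 and 1.22e-05). Wnk1, a kinase that acts on cation and chloride cotransporters, had 101 ± 19.1 CPM in the brain. It had 69.7 ± 15.1 CPM in tumor mouse blood and 49.4 ± 5.60 CPM in sham blood. Median log2 fold changes of brain against tumor were 1.47 for the pumps, 0.29 for the exchangers and 0.28 for the regulators. Over all tested genes, those with few or no counts included, the median was 0.

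The genes closest in pattern to a member were found by the root mean square difference of centred log2 CPM over the 20 libraries, among 12713 genes. These values describe likeness and carry no test. Nearest to Atp1b2 were Tmem252 (0.89) and Ramp2 (1.02), a receptor activity modifying protein known from endothelium, which had 19.8, 7.45, 29.0 and 8.28 CPM in brain replicates 2, 3, 4 and 5 and 0.0165 ± 0.0211 CPM in blood neutrophils of tumor mice. Nearest to Fxyd1 were Bvht (0.99), a long noncoding RNA, and Speg (1.00), a kinase of striated muscle, and nearest to Atp1b1 were Pkdcc (1.59) and Adcy6 (1.61). The standard deviation of these 3 members over the libraries was 2.94, 2.36 and 2.82 on the same log2 scale. Fxyd5 lay closer to its neighbours. Ube2b, a ubiquitin-conjugating enzyme gene, and Otud5, a deubiquitinase gene, both differed from it by 0.16 against its own standard deviation of 0.57. Atp1b3 lay nearest to Ftl1-ps1 (0.26) and Ftl1 (0.29), the ferritin light chain gene and a copy of it that may share reads, against a standard deviation of 0.45.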

How the data were processed

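RNA from 20 libraries of sorted mouse neutrophils, 4 in each of 5 groups, was amplified with SMART-Seq v4 and sequenced as single reads, 4 libraries per lane. The authors deposited a table of raw read counts by Ensembl gene and a table of rlog values, a log2 scale made with DESeq2. The submitters' notes name mm10 and DESeq2; how reads were aligned and counted, on which annotation, was not given in the sources used here. In all, the table held 51918 entries, of which 6 repeated a gene and were dropped.

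Every gene that any library counted was tested on the deposited counts with edgeR 4.0.16 (R 4.3.3), TMM scaling, group as the factor, 15 residual and 6.48 prior degrees of freedom and Benjamini-Hochberg adjustment within each of 7 comparisons. Alternatives were DESeq2 1.42.0, its size factors, limma 3.58.1 on the deposited log2 rlog values, filterByExpr, lane or replicate number as a term, the compared groups alone, a log2 fold change of at least 2, each library left out and, added after seeing the data, 2 brain libraries left out. Log2 CPM used a prior count of 2. The standard error of a log2 fold change was its absolute value divided by the square root of the test's F statistic, so it is approximate. Replicates within a group (30 pairs) differed beyond sampling noise (mean chi-square per gene of 108 to 589). Positions and exon lengths come from GENCODE on mm10, and promoters from RefSeq. The methods were tested on simulated data. The 7 genes and all lists were chosen with earlier results of these data known. Named besides the 7 are up to 4 abundant differing genes per pathway list, up to 2 markers per cell type, and the 2 nearest genes in pattern of each member with at least 1 CPM in a group; some of these markers, and some other genes of this rule, are not reported here. Nme7, Gm1848, and markers named as being at 0 (Aqp4, Gjb6, Cldn2, Cldn4, Cpa1, Folr1, Kl, Otx2) were named after their values were seen. No lane held 2 libraries of each of 2 compared groups, so no test was run within a lane, and lane was fitted as a term. Tumor and tumor mouse blood libraries shared no lane, so with lane as a term that comparison rests on links through other groups.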

Additional observations from a re-analysis of the deposited data

Results flagged for a closer look

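A library stood apart from the other 3 of its group in 7 of 33 sets of 4 libraries, by a gap to the nearest library over the range above Dixon's 95% critical value. For normally distributed values chance gives about 1 in 20 such sets. A set with counts in 1 library alone is always flagged, so that rate does not apply to it. Sham blood replicate 1 was high for both abundant members, with Atp1b3 at 361 CPM against 169 to 183 in the other sham libraries and Fxyd5 at 3052.5 CPM against 2099 to 2177. Fxyd6 was at 3.93 CPM in brain replicate 3 and 0 in the other brain libraries. The other 4 concern single libraries with 5 counts or fewer. Fxyd1 had 0.0195 CPM, 1 count, in sham blood replicate 3. Fxyd2 had 0.0396 CPM, 2 counts, in liver replicate 4 and 0.0958 CPM, 5 counts, in sham blood replicate 4. Fxyd6 was at 0 CPM in sham blood replicate 2, where the other sham libraries had 1 count each.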

How the results depend on the processing

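Of 49 pairs of gene and comparison, 13 were called, and 5 of these kept their call in every alternative run: Atp1b2 and Fxyd1 in brain against tumor mouse blood, Atp1b1 and Fxyd5 in tumor against tumor mouse blood, and Fxyd5 in tumor against liver. The cause of the changes below was not tested. With DESeq2 the count of genes called was 4 in brain against tumor mouse blood (2 with edgeR), 2 in liver against tumor mouse blood (0) and 2 in tumor against liver (1). Over all genes DESeq2 called 3392, 3553 and 4252 in these comparisons, and edgeR 1428, 1491 and 2527. It was 1 with filterByExpr, with lane as a term and with a fit of the compared groups alone in liver against tumor mouse blood. Lane as a term gave 1 in brain against liver (2 without it) and 2 in tumor against tumor mouse blood (5). Limma on rlog values gave 2 and 2, and only the compared groups 3 and 2, in tumor against tumor mouse blood and tumor against liver. A log2 fold change of at least 2 left 1 in brain against liver and 0 in tumor against liver. Without brain replicates 3 and 4, brain against tumor and brain against liver called 1 and 0. Leaving out 1 library gave 1 to 4 in brain against tumor, 0 to 2 in brain against liver, 2 to 5 in tumor against tumor mouse blood, 0 to 1 in liver against tumor mouse blood and 1 to 2 in tumor against liver. It moved Fxyd6 in brain against tumor between -8.42 and 1.83 on the log2 scale (0.31 with every library), and the lowest value, without brain replicate 3, was called in the other direction. Scaling by DESeq2's size factors shifted every gene by -0.12 on the log2 scale in brain against tumor, 0.13 in tumor against tumor mouse blood and 0.15 in tumor against liver, and changed no count of calls by over 1.5 times.

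The sources do not say that a replicate number marks a mouse, and the data did not meet the rule for pairing. Deviations of same-numbered libraries correlated by over 0.1 in 5 of 23 pairs. In 11 of the 23, the best correlated of the 4 libraries in the other group had the same number, where chance gives 1 in 4. Whether libraries are paired was thus not settled. With the replicate number as a block, 3 genes were called in tumor against liver in place of 1, with Atp1b1 and Fxyd2 added (adjusted p = 0.0316 and 0.0201, edgeR). Fxyd1 was called in brain against liver (0.0445), while Atp1b3 in brain against liver and Atp1b2 in tumor against tumor mouse blood were not (0.0872 and 0.144). A count of 0 allows a level of up to 3 counts, or 0.0410 to 0.0728 CPM per library.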
